A study of Mus musculus with 22 samples.

Results

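RNA polymerase II (PolII) occupancy was compared between prometaphase cells that had lost CTCF and prometaphase cells that kept it. The comparison used all peaks of 4 PolII ChIP-seq lists: 2 from cells held in nocodazole without auxin (control) and 2 from cells held in nocodazole with auxin. Peaks of the 4 lists that overlapped by at least 1 bp were merged, which gave 6384 regions covering 2535 kb from 13092 peaks. The whole series holds 1309572 peaks in 18 PolII lists. All libraries came from G1E-ER4, a subline of the mouse proerythroblast line G1E, which has no GATA1, and no GATA1 activity was induced. Control and auxin cells both carried CTCF alleles fused to an auxin-inducible degron and mCherry and both expressed the plant receptor OsTiR that auxin needs to drive degradation. Both were arrested with nocodazole at 200 ng/ml and collected at 0 min after release. The paper states that auxin was added for the last 4 h of the arrest, not from its start. Prometaphase cells were sorted by a mitotic phospho-epitope and a duplicated DNA content, and the sort also took mCherry-positive cells as control and mCherry-negative cells as auxin-treated. The mCherry gate was therefore part of the difference between the groups. The labels number the libraries of each condition 1 and 2, and the authors describe them as biological replicates. The labels do not say whether they came from separate cultures, so p-values measure only the spread between these libraries. A peak list holds no measure of CTCF protein, and the depletion could not be checked in it.

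In prometaphase, chromosomes are condensed, the nuclear envelope is breaking down, and most transcription has stopped, so that little PolII remains on chromatin. PolII begins transcription at a transcription start site (TSS), often pauses shortly after it, and can stay bound past the end of a gene. CTCF is a zinc-finger protein that binds a long DNA motif and holds cohesin at loop anchors, and it is largely released from mitotic chromosomes in many cell types. Small nuclear RNA (snRNA) genes, which encode the RNA parts of the spliceosome, are short, mostly transcribed by PolII, and have promoters of their own kind.

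Sequences are shown for the sites on which the account below turns. All were read from the mouse assembly NCBIM37 (mm9), the build of the lists, and are written 5′ to 3′.

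The first sequences are the 150 bases before the annotated starts of Cdc20 and Ube2c, which encode the activator and the ubiquitin-conjugating enzyme of the anaphase-promoting complex and lay at opposite ends of the comparison. Cdc20 is at chr4:118109958-118110107 (minus strand) and Ube2c at chr2:164595248-164595397 (plus strand), and neither stretch overlaps an exon. Capitals mark CCAAT and TTTGAA on either strand, words found in the promoters of many cell cycle genes. Of the 22367 protein-coding promoters of the same length, 26.1% held CCAAT, 7.77% held TTTGAA and 2.12% held both. The Cdc20 stretch held both words, and the Ube2c stretch held CCAAT only.
Cdc20: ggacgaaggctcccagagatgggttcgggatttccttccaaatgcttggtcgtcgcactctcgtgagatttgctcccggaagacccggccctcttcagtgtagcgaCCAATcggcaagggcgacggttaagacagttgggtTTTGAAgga
Ube2c: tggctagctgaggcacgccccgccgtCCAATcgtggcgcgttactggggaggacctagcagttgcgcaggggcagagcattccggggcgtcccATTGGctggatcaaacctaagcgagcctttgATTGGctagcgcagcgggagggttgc

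The last set holds 3 of the 4 regions of all 4 lists whose 300-bp window around the summit matched the core consensus of the CTCF motif, which is the sequence the depleted protein reads. Capitals mark the match, and each stretch lies outside annotated genes on the minus strand of chr3:108357762-108357821 (beside the small Cajal body RNA gene Scarna2), chr1:88429100-88429159 (near Ptma) and chr13:33653585-33653644 (near an annotated RNase P RNA copy).
Scarna2: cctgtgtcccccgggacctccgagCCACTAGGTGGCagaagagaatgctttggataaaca
Ptma: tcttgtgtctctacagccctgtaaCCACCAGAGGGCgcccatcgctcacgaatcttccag
RNase P RNA copy: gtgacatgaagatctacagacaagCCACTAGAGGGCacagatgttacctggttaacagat

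The lists with auxin were not separable from those without it by their size. Control replicate 1 held 3918 peaks, control replicate 2 held 3221, auxin replicate 1 held 3539 and auxin replicate 2 held 2414. The auxin lists lay lower on average (2977 ± 795 against 3570 ± 493 peaks, mean ± SD, n = 2 each), but auxin replicate 1 lay between the controls, and the difference of −0.28 on the log2 scale did not pass an exact two-sided permutation test (p = 0.667, with 0.333 the smallest value that 2 against 2 libraries can give). The covered length was 1532 and 1229 kb in control and 1348 and 971 kb with auxin (p = 0.667, same exact test). The median peak was 257 and 255 bp wide in control and 240 and 257 bp wide with auxin (p = 1, same exact test). Peaks over an annotated TSS made up 32.03% and 34.6% of the control lists and 29.1% and 32.9% of the auxin lists, which differed by −2.32 percentage points (p = 0.667, same exact test).

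Each listed peak rested on few fragments. The number of fragments stacked at the summit could be solved as a whole number for 100% of the peaks of each list. Its median was 12 in both replicates numbered 1 and 14 in both numbered 2, the lowest summit of a listed peak was 7 or 8, and the highest of a list was 124 to 161. A summit of 12 fragments has an exact 95% Poisson interval of 6.20 to 21.0 fragments, which covers counting error only. The lowest background of a list was 0.818 to 0.958 fragments and was also its commonest. A region missing from a list may therefore lie just under the limit of 7 or 8 fragments, and a loss of PolII shared by every region would not show in peak ranks.

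Of the 6384 regions, 1043 (16.3%) were detected in all 4 lists, and 3787 (59.3%) in exactly 1 list. Regions detected in both control lists and neither auxin list numbered 294, and those in both auxin lists and neither control list numbered 96. Mixed pairs of 1 control and 1 auxin list gave 257, 155, 114 and 88 regions, so the control pair had the most regions of its own and the auxin pair the second fewest. The 3 smallest counts of a pair all involved auxin replicate 2, the shortest list, and the part of list length in these counts was not tested. The overlap of 2 lists as shared over combined length (Jaccard index) was 0.404 for the control pair, 0.411 for the auxin pair and 0.387 to 0.411 for the 4 mixed pairs. The mean of the same-condition pairs exceeded that of the mixed pairs by 0.0117, which is the largest difference among the 3 ways to pair the libraries (exact one-sided p = 0.333, the smallest possible).

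**Figure D1:**
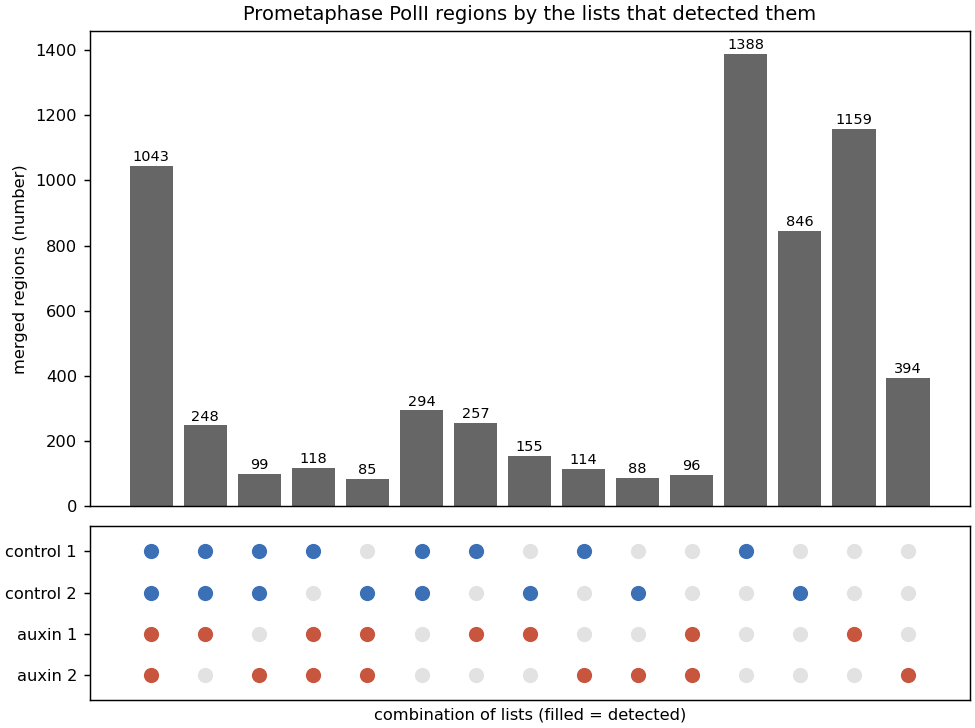
Number of merged prometaphase regions (y axis) for each combination of the 4 lists (filled dots below, control in blue, auxin in red). Regions of all 4 lists number 1043, control-only pairs 294 and auxin-only pairs 96, and regions of a single list number from 394 (auxin replicate 2) to 1388 (control replicate 1).

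Summits lay as far apart between the conditions as within them. Over the 1043 regions of all 4 lists, the median distance between the summits of 2 lists was 71 bp for the control pair, 76 bp for the auxin pair and 68 to 81 bp for the mixed pairs. Both means were 73.5 bp (exact one-sided permutation test over 3 pairings, p = 0.667). Between 56.2% and 60.8% of summits lay within 100 bp of each other in any pair.

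Regions found in all 4 lists lay mostly at starts of coding genes, and regions found in fewer lists less so. A coding TSS lay in 580 of the 1043 regions of all 4 lists (55.6%), in 119 of the 294 control-only regions (40.5%), in 24 of the 96 auxin-only regions (25%) and in 15.6% of the regions of 1 list. Gene bodies without a TSS took 20.3%, 31.3%, 32.3% and 47.4% of the same sets. The 10 kb after a coding gene took 12.8%, 17.3%, 22.9% and 21.3%. Auxin-only regions therefore held fewer coding starts and more downstream and other intergenic sites (17.7% against 9.52%) than control-only regions. Regions shared by 1 control and 1 auxin list spanned 26.5% to 39.8% coding TSS, so the auxin-only share lay just below this range and the control-only share just above it. The median region width was 752 bp in all 4 lists, 320.5 bp in control-only, 347.5 bp in auxin-only and 192 bp in 1 list. A wider region can more easily overlap a TSS, and the part of width in these shares was not tested. The median best summit was 13 fragments in auxin-only regions, 14 in control-only regions and 24 in the regions of all 4 lists. The best summit is the highest among the lists that held a region, and regions of all 4 lists had more lists to draw on. They also had to pass the calling limit in every list, so a higher value was built into that set. Of 22367 annotated protein-coding genes, 645 (2.88%) had a TSS in regions that together covered all 4 lists, 125 (0.559%) had one in both control lists and no auxin list, and 24 (0.107%) in both auxin lists and no control list.

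**Figure D2:**
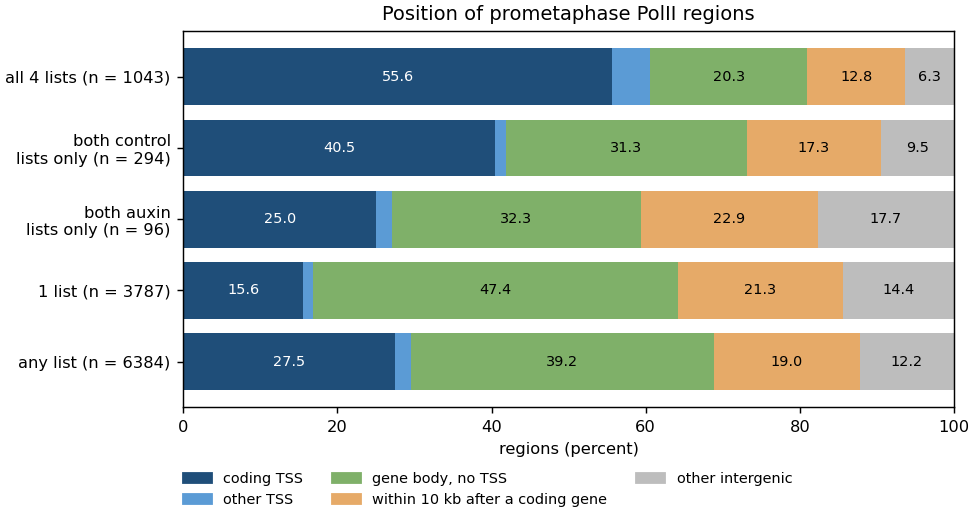
Share of regions (x axis, percent) by position for regions of all 4 lists, of 1 condition only, of exactly 1 list and of any list, with n beside each bar. The coding TSS share falls from 55.6% in all 4 lists to 15.6% in a single list, with control-only regions at 40.5% and auxin-only regions at 25%. The median region width also falls, from 752 bp in all 4 lists to 192 bp in a single list.

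The order of the regions by strength differed between the conditions about as much as between replicates. Within each list, regions were ranked by the fold enrichment of their best peak, with rank 1 the strongest, and the change was taken as −log2 rank, auxin minus control, so that −1 stands for a doubled rank number. Spearman's rho between 2 lists over the 1043 regions was 0.775 for the control pair, 0.789 for the auxin pair and 0.751 to 0.798 for the mixed pairs, given as a description across regions. None of the 1043 regions passed limma at an adjusted p under 0.05 (0% lower and 0% higher). The smallest adjusted p was 0.639, and at an unadjusted p under 0.05 there were 24 lower and 37 higher regions. The 95% interval of a change extended a median of 1.25 to each side, and the median size of a change was 0.41, and after adjustment no change of any size passed, the largest being −3.64. In 152 regions (14.6%) both auxin ranks were lower than both control ranks, and in 198 (19%) both were higher. These shares are the background for the counts of named groups below. A rank also depends on the length of its list, and a region with equal fragments in all lists can rank higher in the shorter auxin lists. With ranks made anew among the 1043 regions, the counts were 164 lower and 178 higher, and the median change was 0.01 in place of 0.07.

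**Figure D3:**
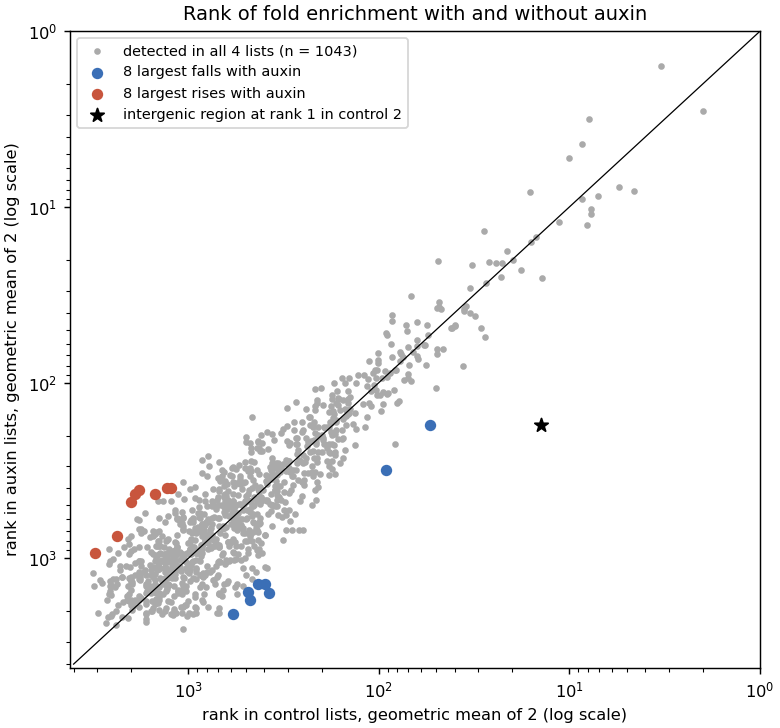
Rank of fold enrichment in the 2 control lists (x axis) and the 2 auxin lists (y axis), as geometric means on log scales, for the 1043 regions of all 4 lists, with the strongest at the upper right. Points follow the line of equal rank, the 8 regions with the largest change on each side lie mostly in the weaker part, and the star is the intergenic region at rank 1 in control replicate 2.

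Control replicate 2 stood apart at a small number of sites. At 10 regions the strongest list had at least 40 summit fragments and at least 2 times the next list, a rule chosen after the values were seen, and in all 10 that list was control replicate 2. The largest was an intergenic region at chr17:4626055-4626703, with 161 fragments in control replicate 2 and 41, 38 and 42 in control replicate 1, auxin replicate 1 and auxin replicate 2. It held rank 1 there and ranks 196.5, 229 and 133.5 in the other lists. An intron of Ano2, a calcium-activated chloride channel, had 58 fragments in control replicate 2 and 10, 17 and 14 in the other lists in the same order. Of the 10 sites, 7 were intergenic and 3 lay in genes, none held a TSS, and each lacked a peak in 1 or more of the 14 post-mitotic lists. Without them 1038 regions remained in the test and 0 passed.

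**Figure D4:**
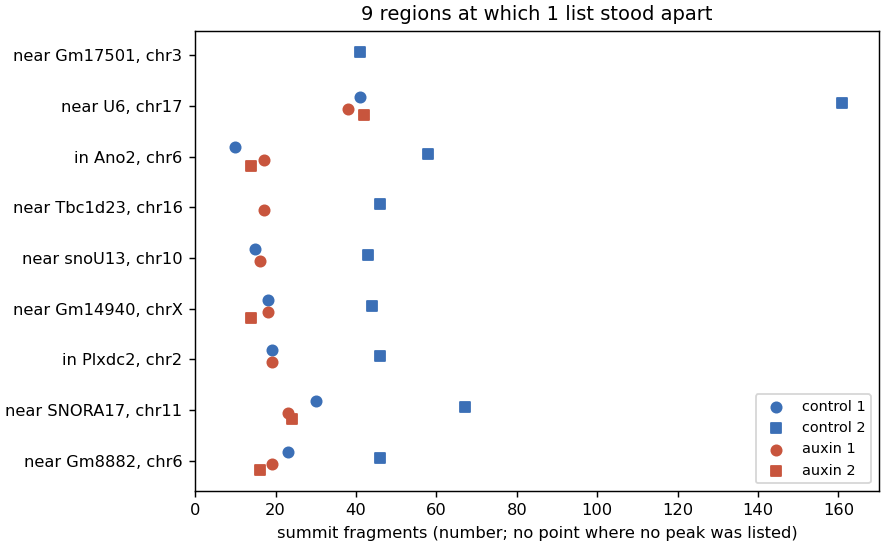
Summit fragments (x axis) in each of the 4 lists at 9 of the 10 regions where 1 list had at least 40 fragments and at least 2 times the next. The list that stands apart is control replicate 2 at every site, from 41 to 161 fragments.

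The strongest prometaphase regions lay at snRNA genes in both conditions. Each of the 10 regions with the best mean rank held or lay within 200 bp of an annotated small nuclear or nucleolar RNA gene, and 9 of them of an snRNA gene. The region of U5, the snRNA that aligns exons in the spliceosome, led the ranking (chr4:116862239-116864400) with 140 and 120 summit fragments in control and 127 and 109 with auxin. The values of the 2 conditions overlapped. A U2 region, from a gene for the snRNA that pairs with the intron branch point, had 108 and 109 fragments in control and 117 and 109 with auxin (chr11:101519310-101521678). Its ranks were 9 and 7 in control and 2.5 and 4 with auxin, which did not overlap, and the change was 1.33 ± 0.58 (SE, limma adjusted p = 0.760). The region holding both the Tex14 start and a U1 copy had 109 and 119 fragments in control and 112 and 95 with auxin (chr11:87239974-87242250). A region beside a U3 gene, the nucleolar RNA of ribosomal RNA processing, had 130 and 104 in control and 117 and 124 with auxin (chr11:87262201-87263640). No rank of these 10 regions went beyond 20 in any list. Copies of these genes are nearly identical in sequence. Reads of low mapping quality were removed, so reads that fit several copies equally well may be missing. Among the 50 best regions, 22 lay within 200 bp of a small nuclear or nucleolar RNA gene. Another 14 held a coding TSS, with no such gene within 200 bp and no start of a replication-dependent histone gene. Among the 14 were the histone genes H3f3b and H2afx and a region that also holds the Mir142 start. Srsf3, a splicing factor of the SR family, had 93 and 113 fragments in control and 100 and 103 with auxin. Gas5, a host gene of small nucleolar RNAs, had 101 and 101 against 105 and 105. In these 50 regions 5 had both auxin ranks lower and 8 both higher, beside 14.6% and 19% over all 1043 regions.

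The 8 regions that fell furthest among those without overlap were led by an untranslated exon of Trnau1ap, a gene of selenocysteine incorporation, 569 bp from Snord99 (chr4:131867175-131868542). It had 24 and 23 summit fragments in control and 11 and 12 with auxin, and the control values stood above both auxin values. Its change was −2.06 ± 0.58 (95% interval −3.28 to −0.85, limma adjusted p = 0.639). The TSS region of Cdc20 had 27 and 20 fragments in control and 12 and 12 with auxin (chr4:118109704-118110186). Its ranks of 283 and 557.5 in control became 1510 and 1307 with auxin, a change of −1.82 ± 0.59 (adjusted p = 0.760). At Scarna2, whose RNA guides modification of spliceosomal RNAs, control had 56 and 62 fragments and auxin had 30 and 36 (chr3:108357256-108357846). Its change was −1.70 ± 0.58 (adjusted p = 0.760), and it was the only one of the 8 whose window held the CTCF core consensus. It was called in 1 of 13 alternatives, limma with a mean-variance trend (adjusted p = 0.0287), and in none of the other 12. That fit called 3 regions, among them an intergenic site that rests mainly on control replicate 2 (below).

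Other regions of this side were the TSS of Nudcd2, with 21 and 21 fragments against 11 and 11, the TSS of Rpl7, a protein of the large ribosomal subunit, with 24 and 32 against 16 and 19, and the TSS of Gnai3, an inhibitory G protein subunit, with 30 and 26 against 18 and 16. An intergenic region at chr11:24999973-25000327, had 30 and 67 against 23 and 24 and is among the 10 sites of control replicate 2; without that library its change fell from −1.77 to −0.45. It was called without control replicate 1 (adjusted p = 0.0255) and with the mean-variance trend (adjusted p = 0.0287).

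On the opposite side, Spsb2, a SOCS-box substrate adaptor, had 12 and 11 fragments in control and 18 and 22 with auxin in a region over a coding exon (chr6:124759787-124760420). Both auxin values stood above both controls, with a change of 2.16 ± 0.58 (95% interval 0.94 to 3.38, limma adjusted p = 0.639). The TSS of Rpl27a, of the large ribosomal subunit, had 11 and 12 against 17 and 21 (change 2.06 ± 0.58, adjusted p = 0.639). The TSS of Ube2c had 14 and 13 against 18 and 24 (chr2:164594913-164595613). Its ranks of 1079 and 1535 in control became 528.5 and 296 with auxin, a change of 1.70 ± 0.59 (adjusted p = 0.760), opposite in sign to Cdc20. The TSS of Dyrk3, a kinase that dissolves condensates in mitosis, had 9 and 9 against 14 and 16, close to the lowest summit listed. Rusc1 had 17 and 10 against 20 and 21, and Wdr38 had 15 and 12 against 24 and 19. A region near Mir26b had 12 and 12 against 13 and 26, and one in Masp2, 6332 bp from the start of Tardbp, had 17 and 11 against 25 and 20. The 16 regions of both sides kept their direction under every alternative in which they were tested, but not their size. They were chosen for ranks without overlap, so leaving out 1 library could hardly turn their direction. The kept direction is therefore no support for these changes. With ranks made anew among the 1043 regions, 13 of the 16 changes shrank by over 1.5 times, as at Spsb2 (1.18), Rpl27a (1.05), Dyrk3 (0.53) and Trnau1ap (−1.32), while Scarna2 stayed at −1.72. The change near Mir26b was 0.51 without auxin replicate 2 and 2.86 without auxin replicate 1, and that in Masp2 was 0.79 without control replicate 2 and 2.50 without control replicate 1. That at Wdr38 was 1.1 without control replicate 2.

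**Figure D5:**
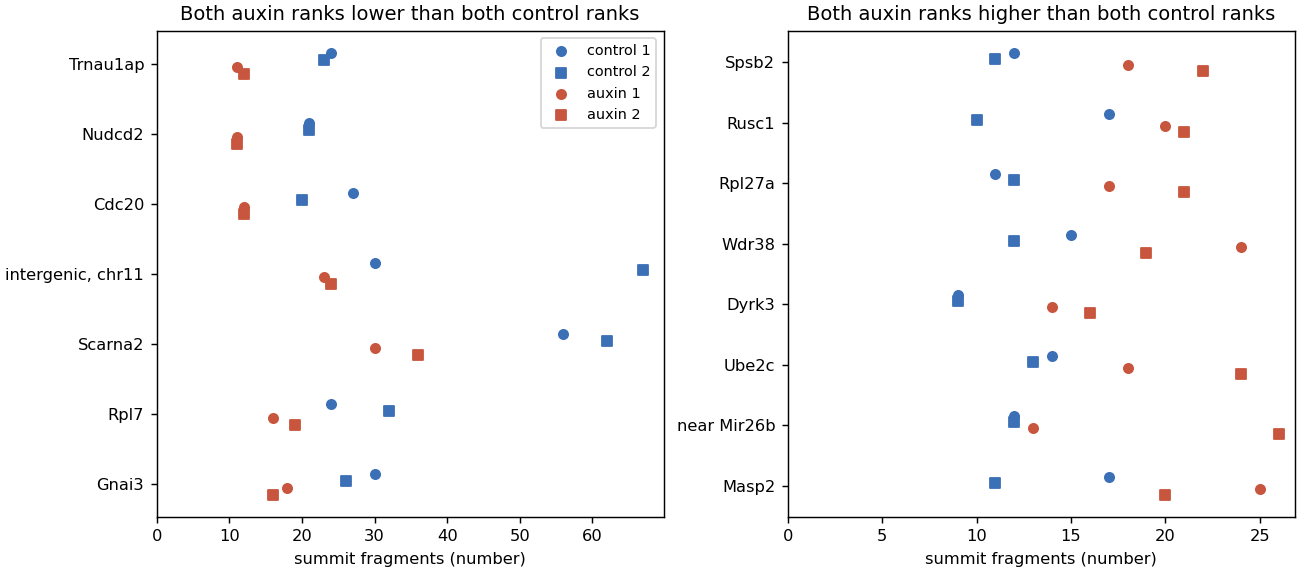
Summit fragments (x axis) in each library for 7 of the 8 regions with the largest fall (left) and the 8 with the largest rise (right) among regions whose auxin and control ranks do not overlap; the separation was the rule that chose them. Most lie between 9 and 30 fragments, and Scarna2 stands out with 56 and 62 in control against 30 and 36 with auxin.

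The Hmmr and Nudcd2 starts gave values in opposite directions across a gap of 47 bp between their regions, a pair chosen after its values were seen. Hmmr, which encodes a spindle protein, had 17 and 18 fragments in control and 19 and 22 with auxin, a change of 0.76 ± 0.57 (limma adjusted p = 0.901). Nudcd2 changed by −1.86 ± 0.57 (adjusted p = 0.760). Neither passed the test.

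Regions inside and after genes had higher median changes than regions at coding starts. The 580 coding TSS regions had a median change of 0.01 and split 94 lower to 95 higher without overlap. The 212 gene-body regions had a median of 0.27 and split 23 to 53, and the 133 regions within 10 kb after a coding gene had a median of 0.18 and split 13 to 35. Over all 1043 regions the split was 152 to 198. When ranks were made anew among the 1043 regions, the median rank of gene-body regions was 615 and 629 in control and 591 and 607 with auxin, and that of downstream regions was 663 and 713 in control and 591 and 594 with auxin. Coding TSS regions had 470 and 448 in control and 497 and 453 with auxin. On these ranks the coding TSS regions split 103 lower to 85 higher, the gene-body regions 25 to 49 and the downstream regions 15 to 33. The gene-body median stayed above the coding TSS median under all 11 settings tried, by 0.11 to 0.38. The downstream median did so by 0.06 (without auxin replicate 1) to 0.31 (without auxin replicate 2). The classes were described after the values were seen, the gene-body regions lay lower in the lists, and the difference was not tested.

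Regions called in 1 condition only had lower best summits than regions of all 4 lists, a difference partly built into the sets. By best mean rank, the control-only regions were led by a site 9859 bp from the start of Amot (chrX:141949583-141949753) with 21 and 22 fragments. A site 7064 bp from Prl3c1 had 13 and 31. These sites had a peak in 2 and 1 of the 14 post-mitotic lists. The TSS of Rps16, of the small ribosomal subunit, had 14 and 19 fragments, the TSS of Tbc1d15, a regulator of Rab7, had 13 and 20, and a coding exon of Setdb1, a histone H3 lysine methyltransferase, had 16 and 20, and each of them had a peak in all 14. The auxin-only regions were led by an intron of Parp9, 622 bp from the start of its divergent partner Dtx3l, with 19 and 22 fragments (chr16:35939859-35940174). Introns of Tuba1c, an alpha-tubulin, and of Mat2a, the enzyme that makes S-adenosylmethionine, had 15 and 17 and 20 and 16 fragments. A site 25271 bp from Vmn1r61 had 16 and 15, and a site 3386 bp from Snord14e had 19 and 13. All 5 had a peak in each of the 14 post-mitotic lists.

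Among gene groups, replication-dependent histone genes, which encode the histones made with new DNA, were among the most widely occupied in prometaphase. Of 70 genes, 44 had a TSS in regions of all 4 lists, 45 in both control lists and 44 in both auxin lists. Their 33 regions of all 4 lists split 3 lower to 11 higher without overlap (9.09% and 33.3%, beside 14.6% and 19% over all regions), with a median change of 0.39 beside 0.07 over all. Hist1h1b, a linker histone, had 67 and 58 fragments in control and 63 and 69 with auxin, which overlapped. The shared region of Hist1h2ag and Hist1h2bj, both core histones, had 54 and 53 against 62 and 57. Hist1h3b, of histone H3, had 52 and 48 against 63 and 60, and its ranks did not overlap. Hist1h2af, of histone H2A, lay on the other side by rank, with 145.5 and 164 in control and 277 and 262 with auxin. Its fragments overlapped, with 38 and 39 in control and 41 and 27 with auxin. Hist1h3b and Hist1h2af were named after their values were seen. No histone region passed limma (smallest adjusted p = 0.901). The histone median exceeded that of all regions under all 11 settings, by 0.04 (without control replicate 2) to 0.34. This was not particular to histones. The CTCF and cohesin list (1 region) and the haematopoietic and erythroid list (2 regions) also stayed above under all 11. The lists of PolII factors, of Srsf and Hnrnp genes and of immediate early genes stayed below under all 11. Histone genes lie in clusters and copies of one class are close in sequence, so these regions are not independent.

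The cytosolic ribosomal protein genes were about as widely occupied. Of 78 genes, 51 had a TSS in regions of all 4 lists (65.4%), 59 in both control and 55 in both auxin lists. Their 52 regions split 8 lower to 6 higher with a median change of 0.02, which ran from −0.16 without auxin replicate 2 to 0.19 without auxin replicate 1. For this group and the next ones, the background over all 1043 regions was 14.6% lower and 19% higher. The 4 with the best mean rank included Rps9, with 62 and 50 fragments in control and 54 and 46 with auxin, and Rps20, with 56 and 64 against 43 and 42. Rps20 changed by −1.10 ± 0.57 (limma adjusted p = 0.840) and its ranks did not overlap. Of 1402 annotated snRNA gene copies in the list, 17 were in all 4 lists, and their 17 regions split 0 lower to 4 higher with a median change of −0.10, which ran from −0.53 without auxin replicate 1 to 0.36 without auxin replicate 2 and was 0.13 without control replicate 1. An snRNA copy may be absent from the lists because reads that fit several copies equally well were removed. Of the 13 host genes of small nucleolar RNAs, 9 were in all 4 lists and none of their 9 regions separated the conditions. Of the 33 splicing regulator genes of the Srsf and Hnrnp families, 17 were in all 4 lists, and their 20 regions split 5 lower to 4 higher. Srsf7 was among the lower, with 99 and 100 fragments against 84 and 79, and Srsf2 among the higher, with 66 and 72 against 81 and 74.

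Immediate early genes, which answer growth and stress signals within minutes, were either in all 4 lists (12 of 24) or in none. Of their 12 regions 4 were lower without overlap (Ier5, Mcl1, Btg2 and Dusp1) and 1 was higher (Myc), beside 14.6% and 19% over all 1043 regions. Myc, a transcription factor of growth, had 26 and 31 fragments in control and 40 and 38 with auxin, which did not overlap, and changed by 1.08 ± 0.57 (limma adjusted p = 0.840). Junb, part of the AP-1 factor, had 52 and 54 against 51 and 50. Ier2 had 48 and 32 against 34 and 50. Jund, a partner of Junb, had 37 and 48 against 36 and 41. Myc was named after its values were seen, as were the members listed by name alone here and in the groups below.

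Genes of the mitotic machinery were detected less uniformly. Of 30 genes, 17 had a TSS region in 1 or more lists and 7 in all 4. Of these 7 regions, 3 were lower without overlap (Cdc20, Ncapd2 and Kif20a) and 1 higher (Ube2c). For this group and the next ones, the background over all 1043 regions was 14.6% lower and 19% higher. Top2a, the topoisomerase that untangles sister chromatids, had 38 and 33 fragments against 36 and 44, and its ranges overlapped. Cenpf, a kinetochore protein, had 25 and 31 against 27 and 23. Bub3, of the spindle checkpoint, was listed in control replicate 2 alone, with 25 fragments. The list median of −0.39 turned to 0.33 without control replicate 1, where 8 regions entered. For heat shock and chaperone genes 11 of 26 were in any list and 5 in all 4, with 2 regions lower (Dnaja1 and Cct5) and none higher. Hsp90aa1 had 59 and 51 fragments against 57 and 52, and Hspa8 had 38 and 29 against 32 and 30. For p53 target genes 9 of 22 were in any list and 6 in all 4, with 2 regions lower (Btg2 and Ccng1) and 1 higher (Aen). Cdkn1a, the cell cycle inhibitor p21, had 35 and 31 against 30 and 32.

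Of 43 genes for PolII, general factors and pausing factors, 17 were in any list and 9 in all 4, with 3 regions lower (Gtf2f1, Gtf2b and Taf13) and 2 higher (Polr2a and Hexim1). Over all 1043 regions 14.6% were lower and 19% higher. The median change of the 9 regions was −0.41 beside 0.07 over all. Polr2a, the largest PolII subunit, had 58 and 66 fragments in control and 100 and 68 with auxin. The excess lay mainly in auxin replicate 1, and the change was 1.09 ± 0.59 (limma adjusted p = 0.857). Hexim1, the inhibitor of P-TEFb, had 45 and 41 against 43 and 48, which overlapped. It counted as higher by rank only, with 110.5 and 128.5 in control and 109 and 76 with auxin. Among 26 haematopoietic and erythroid genes, 4 had a TSS in any prometaphase list and 2 in all 4. Runx1, a master factor of blood formation, had 22 and 22 fragments against 22 and 19, and Tfrc, the transferrin receptor, had 24 and 32 against 33 and 34, above the controls in both auxin lists by rank. Gata2 was listed once, in control replicate 1. The region of Tal1 was in 3 lists, in 2 of them with the peak over a TSS itself. All 13 erythroid and progenitor markers held a peak over a TSS in each of the 4 early-G1 lists, whereas of 14 markers of lymphoid, myeloid, liver, nerve and muscle cells Des alone did, and none of the 14 was in a prometaphase list.

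Ctcf itself had no peak over a TSS in the 4 prometaphase lists and had one in all 14 post-mitotic lists. Of 16 genes of CTCF and cohesin, 5 were in any list and 1 in all 4, beside 8.03% and 2.88% of all coding genes. Mau2, a subunit of the cohesin loader, had 21 and 16 fragments in control and 20 and 18 with auxin. Its region also holds the start of Sugp1, its ranks were 563 and 892.5 in control and 427.5 and 513.5 with auxin, and its change was 0.60 ± 0.58 (limma adjusted p = 0.970). Smc1a, a cohesin ring subunit, was listed in the replicates numbered 1 only, with 11 fragments in control and 12 with auxin. Esco2, which acetylates cohesin, had no peak in control replicate 1 and 10, 10 and 15 fragments in control replicate 2, auxin replicate 1 and auxin replicate 2. Cdca5, which protects cohesin, had 10, 15 and 11 fragments and no peak in auxin replicate 2, and Wapal, which releases cohesin, was listed in control replicate 2 alone with 11 fragments.

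The CTCF core consensus was found near few prometaphase summits. It was found on either strand in 30 of the 6384 windows of 300 bp (0.470%). Windows elsewhere in the genome were not counted, so a shortage or an excess near summits was not tested. The consensus was present in 4 of the 1043 regions of all 4 lists (0.384%), in 2 of the 294 control-only regions (0.680%) and in 1 of the 96 auxin-only regions (1.04%). Of the 4, 3 had lower ranks with auxin without overlap, beside 14.3% of the 1039 regions without the consensus. Among the 3 were Scarna2 (56 and 62 fragments against 30 and 36) and Ptma (25 and 25 against 19 and 16). The region near the RNase P RNA copy had 23 and 16 against 36 and 21. The median change of the 4 was −0.60 beside 0.07 over the 1039 regions without the word, and none passed limma. The match lay 107 to 119 bp from the summit at the 3 regions shown. With the shorter word AGGGGGC, on either strand, 66 regions of all 4 lists held it (6.33%, beside 6.48% of all windows). Their median change was 0.04 with 6 lower and 12 higher, and the 977 regions without it had 0.08. The shorter word is not part of the match at any of the 3 regions shown, so it marks other sites.

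Regions found in prometaphase were nearly all found again after release. Of the 1043 regions of all 4 lists, 99.0% had a peak in all 7 post-mitotic control lists and 98.9% in all 7 auxin lists. Over all 6384 regions the shares were already 90.4% and 90.9%, and over regions of exactly 1 list 85.2% and 85.8%. For the 294 control-only regions the shares were 96.9% and 97.3%. For the 96 auxin-only regions they were 94.8% in control and 96.9% with auxin. Only 12 of the 1043 regions lacked a peak in 1 or more of the 14 lists. Of these, 3 held a coding TSS, and they were named after their values were seen: Cenpf, Hmmr and Ect2, a regulator of cytokinesis. Cenpf, at chr1:191511600-191512401, had no peak in either early-G1 list of either condition, a peak in 1 of 3 mid-G1 lists of each condition, and a peak in both late-G1 lists of each. Hmmr was missing in 3 and Ect2 in 1 of the 14 lists.

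The regions were also followed in early-G1, at 60 min after release, whose 4 lists played no part in choosing them. Among the 287 control-only regions that all 4 early-G1 lists held, the median change in early-G1 rank was 0.10, with 36.6% of regions below 0. Among the 92 auxin-only regions it was 0.06 with 42.4% below 0. It was 0.05 for the regions whose prometaphase ranks were both lower with auxin and 0.05 for those both higher, beside 0.06 over the 5923 regions that all 4 early-G1 lists held. These are descriptions, with no test. In a test of the difference itself over 1035 regions detected in all 8 lists of both stages, 2 regions (0.193%) passed, a region at a U2 gene and the TSS of Gm2529, with early-G1 changes of −2.35 and −2.43 and prometaphase changes of 0.28 and 0.13. Both calls were lost with the replicate block (limma adjusted p = 0.250 each), and each was lost in 9 of 10 alternatives in all.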

How the data were processed

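PolII ChIP-seq libraries were aligned by the authors to mm9 with Bowtie2 2.2.9 in local mode, and reads with mapping quality below 10, duplicates, and reads on the mitochondrial genome, random contigs or the blacklist, were removed with SAMtools 0.1.19 and bedtools 2.27.1 (versions from the submitters' processing notes). Narrow peaks were called by the authors in each library separately with MACS2 2.1.0 at a q-value of 0.01 against 1 input for the stage. Per the file formats, each deposited list gives the fold enrichment at the summit (a linear ratio) and its p-value and q-value as −log10. Read counts were not used here, so no count model was applied, and peak number depends on the depth of the library and its input.

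Peaks were merged, annotated with GENCODE vM1 (NCBIM37) and ranked per list as stated in the results, and limma (version 3.58.1, under R 4.3.3) was fitted to −log2 ranks, with Benjamini-Hochberg adjustment. The region fit used the 4 prometaphase lists without a replicate block. Summit fragments were solved from the deposited fold enrichment ratio and −log10 p-value (tolerance 0.01). Scripts were tested on simulated data. Named regions were the 10 best by mean rank, the 8 largest changes per direction without overlap, the 5 best per condition-only set, up to 4 per gene list, and Ctcf. The members, gene lists, rules and tests were chosen with earlier results of these data known. Of the gene lists, 2 ribosomal protein, 1 PolII factor and 7 small nucleolar host names had no match in the annotation. Some regions chosen by these rules are not reported here by name, and stay in the counts.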

Additional observations from a re-analysis of the deposited data

Results flagged for a closer look

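At 2 regions the data showed an auxin change that differed between prometaphase and early-G1 (limma interaction over 1035 regions, adjusted p = 0.0276 for each). At a U2 gene region at chr11:101505511-101507058, ranks among these regions were 42.5 and 50 in prometaphase control, 36 and 40 in prometaphase with auxin, 35.5 and 39 in early-G1 control and 173.5 and 207 in early-G1 with auxin. The change was 0.28 ± 0.21 in prometaphase and −2.35 ± 0.21 in early-G1, a difference of 2.63 (95% interval 1.93 to 3.33). At the Gm2529 start at chr8:87188792-87189277, ranks were 1015 and 969.5 in prometaphase control, 846 and 973 with auxin, 82.5 and 78.5 in early-G1 control and 459 and 408 with auxin. The change was 0.13 ± 0.19 in prometaphase and −2.43 ± 0.19 in early-G1, a difference of 2.56 (95% interval 1.91 to 3.20). Both were named after their values were seen. Each call was lost in 9 of 10 alternatives: the adjusted p was 0.250 for each with the replicate block, 0.302 (U2) and 0.252 (Gm2529) with the normal score, and under 0.05 only without early-G1 control replicate 1 (0.0426 and 0.0346).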

How the results depend on the processing

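Depth limits single regions: a listed summit may rest on 7 or 8 fragments, and an undetected region cannot be told from one just under that limit. The groups of 2 libraries cannot give an exact two-sided p below 0.333. Peak number, covered length, TSS share and Jaccard difference kept their direction in every alternative. Leaving out 1 library gave log2 differences in peak number of −0.56 to −0.01 and in covered length of −0.50 to −0.03, TSS share differences of −4.25 to −0.39 points and Jaccard differences of 0.00501 to 0.0199. With the replicate block the exact p was 0.5 for peak number, covered length and TSS share. The log2 difference in median width turned to 0.0063 when peaks within 1 kb were joined, and leaving out 1 library gave −0.093 to 0.0056 (the cause was not tested). Leaving out 1 library gave 406 to 1733 regions in every control and no auxin list, 188 to 1276 in every auxin and no control list and 1141 to 1292 in every list, since fewer lists then had to match. Rank calls rose from 0 to 3 with a mean-variance trend and to 1 (lower) for regions in 3 or more lists, where a missing list took the rank after its last, and leaving out 1 library gave 0 to 4 calls, the 4 (3 lower and 1 higher) without control replicate 1; the replicate block gave 0. Rank deviations of same-numbered libraries were not correlated (0.0021 over 1043 regions), which cannot show that the numbers mark no pairing. The lowest background did group by number. It was 0.829 (control) and 0.818 (auxin) fragments in replicates 1, and 0.958 and 0.943 in replicates 2. Regions at an unadjusted p under 0.05 numbered 40 lower and 14 higher with the normal score, beside 24 and 37. The early-G1 comparison gave 2 calls, 1 with the normal score (another region, in Ncl) and 0 with the replicate block, and leaving out 1 library gave 0 to 11, the 11 without early-G1 control replicate 1. A peak in any post-mitotic library of the condition was found for 99.7% of control-only, 100% of auxin-only and 100% of all-list regions (both conditions). Over all 6384 regions the shares were 97.6% in control and 97.4% with auxin. The word AGGGGGC was in 6.33% of all-list, 9.18% of control-only and 8.33% of auxin-only regions. Alternatives without the 10 sites of control replicate 2, and the settings for gene lists and positions, were added after seeing the data.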
